A study of Homo sapiens with 8 samples.

Results

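Genes that steer or mark bone formation were followed in A673 Ewing Sarcoma cells exposed to the Jumonji demethylase inhibitor JIB-04. They were the osteoblast transcription factors RUNX2 and SP7, the homeobox factors DLX5, MSX1 and MSX2, the ligands BMP2 and BMP4, the phosphatase ALPL, and the matrix proteins SPARC and SPP1. The 10 genes were taken by symbol from a table of 65962 genes, and each symbol had a single identifier. With JIB-04, SPP1, MSX1, SPARC and RUNX2 transcripts rose, ALPL and DLX5 transcripts fell, and MSX2, BMP2, BMP4 and SP7 stayed under 1 FPKM on average in both groups. FPKM counts fragments per kilobase of transcript relative to all mapped reads, so it is a level scaled for transcript length and sequencing depth.

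A673 is an established line from a tumor of the Ewing family, and all libraries came from that line. The 4 libraries of the treated group came from cells given 2 µM JIB-04 and the 4 of the control group from cells given vehicle, which the study's methods name as DMSO, each for 36 hours. PolyA RNA was sequenced by a directional protocol. A single line at 1 dose and 1 time was measured, and the study's methods describe the treatment as run in quadruplicate. Whether the 4 of a group were grown as independent cultures is not stated there, so p-values measure the spread between these libraries, which may be technical. Both groups carried the Ewing Sarcoma markers: all 11 listed averaged 1 FPKM or more, of which 3 rose, 7 fell and 1 did not pass limma (4 rose and 5 fell on TPM, a rescaling to a fixed sum per library). Of all genes averaging 1 FPKM or more, 34.2% were called higher and 38.0% lower (40.4% and 31.1% on TPM). The surface marker CD99 fell from 1160 to 599 FPKM and the kinase PRKCB from 122 to 78.3 FPKM, while the receptor NPY1R rose from 107 to 159 FPKM and the lipase LIPI from 158 to 202 FPKM.

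Osteoblasts arise from mesenchymal progenitors. BMP ligands bind paired serine/threonine kinase receptors, SMAD proteins carry the signal to the nucleus, and DLX and MSX homeobox factors are among the genes that respond. RUNX2 commits cells to the osteoblast lineage, SP7 (osterix) acts after it, and the cells then make alkaline phosphatase (ALPL) and a matrix holding collagen I, osteonectin (SPARC) and osteopontin (SPP1).

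Promoter windows were examined because RUNX2 is itself a DNA-binding regulator and SPP1 is among the matrix genes known to respond to it. RefSeq windows on GRCh38.p14, running from 250 bases before a transcript start to 50 bases after it, were found for 7 of the 10 genes, 12 windows in all. DLX5, BMP2 and SP7 had no entry. The RUNX core TGTGGT, searched on both strands, occurred in 13.1% of 35116 windows of this kind and in 3 of these 12, which belonged to RUNX2, SPP1 and BMP4. Capitals mark the core, here read on the opposite strand, in the upstream RUNX2 window (chr6:45328080-45328379, plus strand) and the SPP1 window (chr4:87975464-87975763, plus strand).

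RUNX2: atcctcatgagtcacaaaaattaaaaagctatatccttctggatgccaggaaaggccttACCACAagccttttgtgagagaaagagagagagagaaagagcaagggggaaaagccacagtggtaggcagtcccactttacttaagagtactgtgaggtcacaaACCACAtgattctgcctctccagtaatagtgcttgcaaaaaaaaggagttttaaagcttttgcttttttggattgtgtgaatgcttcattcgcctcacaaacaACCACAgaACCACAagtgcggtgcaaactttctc

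SPP1: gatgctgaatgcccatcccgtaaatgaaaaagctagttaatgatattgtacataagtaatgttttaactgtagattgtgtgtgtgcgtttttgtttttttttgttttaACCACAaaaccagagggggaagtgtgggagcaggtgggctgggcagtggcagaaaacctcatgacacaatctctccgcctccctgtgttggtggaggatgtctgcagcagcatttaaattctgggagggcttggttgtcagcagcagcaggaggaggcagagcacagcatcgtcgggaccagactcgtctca

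The RUNX2 window held 4 matches, starting at positions -191, -87, 17 and 25 relative to the transcript start. A number of 4 or more was found in 5 windows, or 0.0142% of all. This share comes from several searches, since homeobox, E-box, AP-1, CRE, hypoxia element, GC box and TATA box motifs were searched too. Matches to those other motifs are not all given here. The SPP1 window held 1 match, at -142. The windows of MSX1, MSX2 and SPARC and the second RUNX2 window held no RUNX core. Whether the matches bear on the changes with JIB-04 was not tested. ALPL, the member that fell most, is also shown. Its 3 windows held no RUNX core, and the second (chr1:21509173-21509472, plus strand) held 4 GC boxes (GGGCGG) and 1 TATA box (TATAAA, on the opposite strand), which are in capitals. A GC box was present in 45.0% of all windows, 4 or more GC boxes in 9.06%, and a TATA box in 11.5%. A match of letters is a description and does not show that a factor binds, or which of RUNX1, RUNX2 and RUNX3 would.

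ALPL: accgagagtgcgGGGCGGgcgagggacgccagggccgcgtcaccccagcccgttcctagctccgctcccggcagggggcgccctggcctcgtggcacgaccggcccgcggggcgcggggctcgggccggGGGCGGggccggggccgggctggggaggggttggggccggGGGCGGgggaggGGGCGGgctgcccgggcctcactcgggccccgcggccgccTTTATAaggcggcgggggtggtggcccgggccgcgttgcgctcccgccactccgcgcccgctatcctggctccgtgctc

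When the 8 libraries were averaged, 17460 genes reached 1 FPKM or more, and 72.2% of them passed the test between JIB-04 and vehicle, 34.2% higher and 38.0% lower. The test was limma on log2(FPKM + 0.5) with Benjamini-Hochberg adjustment over all genes tested and a threshold of 0.05. Of the 10 genes, 6 entered it and all 6 passed, 4 higher and 2 lower, against this wide background of change. RUNX2 and SPP1 entered only through their JIB-04 libraries, since both had vehicle means under 1 FPKM. Their direction in this test was fixed by the filter on level, so counting them as higher is no evidence of direction. Fold changes on this scale understate the change of low genes.

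**Figure D1:**
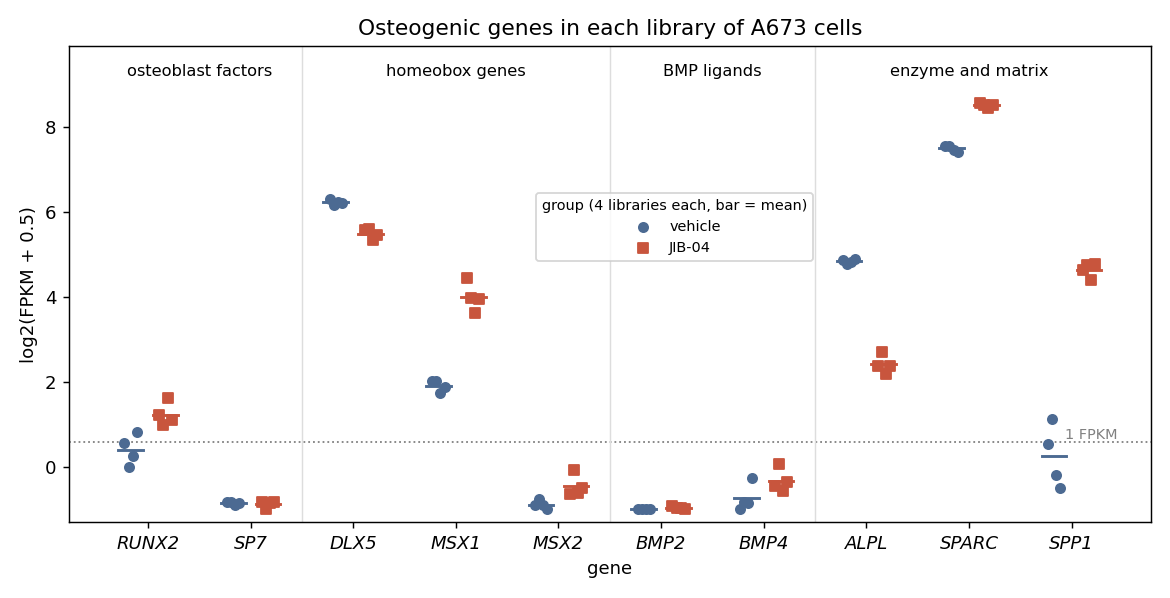
Level of each gene in each library, as log2(FPKM + 0.5) on the vertical axis, with genes ordered by role along the horizontal axis, circles for the 4 vehicle libraries, squares for the 4 JIB-04 libraries and bars for group means. The JIB-04 squares lie above the circles for RUNX2, MSX1, MSX2, SPARC and SPP1 and below them for DLX5 and ALPL, and the dotted line marks 1 FPKM.

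RUNX2 (ENSG00000124813, chromosome 6, 45328157 to 45664349, plus strand, GRCh38), the master factor of the osteoblast lineage, was low but higher with JIB-04. Vehicle libraries 1 to 4 held 0.971, 0.494, 0.693 and 1.25 FPKM, and JIB-04 libraries 1 to 4 held 1.83, 1.47, 2.57 and 1.64 FPKM. All 4 JIB-04 libraries exceeded all vehicle libraries, as did 31.9% of the genes tested. The mean was 0.853 ± 0.331 FPKM (SD, n = 4) with vehicle and 1.88 ± 0.484 FPKM (SD, n = 4) with JIB-04, a 2.20-fold ratio of means. On the log2 scale RUNX2 rose by 0.83 (SE 0.22, limma adjusted p = 0.0075). An estimated 57 to 153 reads per vehicle library and 157 to 267 per JIB-04 library lay behind these values. SUPT3H, a gene that overlaps RUNX2 on the opposite strand with no shared exon, moved the other way, from 9.53 to 4.38 FPKM.

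SP7 (ENSG00000170374, chromosome 12, 53326575 to 53345315, minus strand), the zinc finger factor that acts after RUNX2, was at the detection limit in both groups. Vehicle libraries held 0.0610, 0.0610, 0.0348 and 0.0580 FPKM, and JIB-04 libraries held 0.0607, 0, 0.0590 and 0.0682 FPKM. The groups overlapped, with means of 0.0537 ± 0.0127 and 0.0470 ± 0.0316 FPKM (SD, n = 4 each), and no difference was detectable at this depth (exact two-sided permutation p = 0.857). These values rest on 3 to 5 estimated reads per vehicle library and 0 to 5 per JIB-04 library. The library at 0 allows up to 0.0526 FPKM at 3 reads.

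The homeobox factors went in different directions. DLX5 (ENSG00000105880, chromosome 7, 97020392 to 97024950, minus strand), a distal-less factor of early skeletal development, was well expressed and fell. Vehicle libraries held 78.4, 71.0, 74.2 and 73.2 FPKM, and JIB-04 libraries held 46.8, 48.0, 39.8 and 43.1 FPKM. Every vehicle library exceeded every JIB-04 library, as did 35.4% of the genes tested. The mean went from 74.2 ± 3.11 to 44.4 ± 3.70 FPKM (SD, n = 4 each), 1.67-fold higher with vehicle, a log2 change of -0.74 (SE 0.07, limma adjusted p = 6.73e-06).

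MSX1 (ENSG00000163132, chromosome 4, 4859666 to 4863936, plus strand), a homeobox factor of craniofacial and limb progenitors, rose. Vehicle libraries held 3.56, 3.53, 2.82 and 3.17 FPKM and JIB-04 libraries 21.2, 15.3, 11.9 and 15.0 FPKM. The groups were well separated, although the JIB-04 libraries spread more among themselves, with a coefficient of variation of 24.5% against 10.6%. The mean went from 3.27 ± 0.346 to 15.8 ± 3.88 FPKM (SD, n = 4 each), a 4.84-fold ratio, or 2.09 on the log2 scale (SE 0.16, limma adjusted p = 2.27e-06). This change was larger in size than that of 95.3% of the genes tested.

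MSX2 (ENSG00000120149, chromosome 5, 174724533 to 174730893, plus strand), its relative with a role in skull growth, stayed far below MSX1. Vehicle libraries held 0.0387, 0.0930, 0.0405 and 0 FPKM and JIB-04 libraries 0.144, 0.454, 0.155 and 0.209 FPKM. Every JIB-04 library was above every vehicle library, a pattern shown by 13.9% of the genes whose mean lay above 0 and under 1 FPKM. The exact two-sided permutation test gave p = 0.0286, the smallest that 4 against 4 libraries allow. Without a filter on level, limma gave a log2 difference of 0.43 (SE 0.13, adjusted p = 0.0276), and 14.4% of the genes under 1 FPKM were called higher in that fit, and 20.1% in either direction. At most 0 to 4 reads per vehicle library and 6 to 18 per JIB-04 library were involved, as estimated on the longest transcript.

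Neither BMP ligand reached 1 FPKM in any library. BMP2 (ENSG00000125845, chromosome 20, 6767664 to 6780280, plus strand), a strong inducer of bone, was listed at 0 in all 4 vehicle libraries, where 3 reads would have given 0.0350 to 0.0426 FPKM. The JIB-04 libraries held 0.0279, 0.0147, 0.0150 and 0 FPKM, or 2, 1, 1 and 0 estimated reads. The groups overlapped at 0 and the difference was not detectable at this depth (exact two-sided permutation p = 0.143).

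BMP4 (ENSG00000125378, chromosome 14, 53949736 to 53958761, minus strand), a ligand of the same subfamily, was low and variable. Vehicle libraries held 0, 0.0683, 0.0588 and 0.332 FPKM and JIB-04 libraries 0.238, 0.544, 0.178 and 0.289 FPKM. Vehicle library 4 lay above 3 of the JIB-04 libraries, so the groups overlapped. Means were 0.115 ± 0.148 and 0.312 ± 0.161 FPKM (SD, n = 4 each), and the difference did not pass the exact two-sided permutation test (p = 0.114). Its estimated reads were 0 to 13 with vehicle and 6 to 19 with JIB-04.

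**Figure D2:**
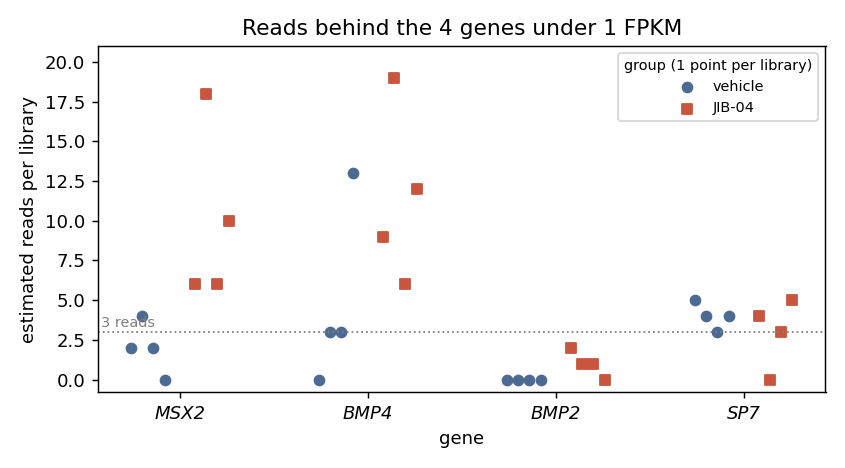
Estimated reads per library (vertical axis) for the 4 genes with means under 1 FPKM (horizontal axis), with circles for vehicle and squares for JIB-04 libraries. No library holds more than 19 reads of any of them, the MSX2 squares all lie above its circles, and the dotted line marks the 3 reads used as the limit for a value of 0.

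ALPL (ENSG00000162551, chromosome 1, 21509372 to 21578412, plus strand), the tissue-nonspecific alkaline phosphatase that frees phosphate for mineral, fell more than any other of the 6 genes tested. Vehicle libraries held 28.5, 26.7, 28.0 and 29.0 FPKM and JIB-04 libraries 4.66, 6.04, 4.03 and 4.71 FPKM. The groups lay far apart. The mean went from 28.0 ± 0.994 to 4.86 ± 0.847 FPKM (SD, n = 4 each), 5.77-fold higher with vehicle, a log2 change of -2.43 (SE 0.11, limma adjusted p = 7.15e-08). This was larger in size than the change of 97.0% of the genes tested.

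SPARC (ENSG00000113140, chromosome 5, 151661096 to 151687165, minus strand), a collagen-binding glycoprotein of bone matrix, was the most abundant of the 10 genes in both groups. Vehicle libraries held 187, 188, 174 and 168 FPKM and JIB-04 libraries 379, 363, 346 and 363 FPKM, with no overlap. The mean went from 179 ± 9.66 to 362 ± 13.5 FPKM (SD, n = 4 each), a 2.02-fold ratio and a log2 change of 1.01 (SE 0.05, limma adjusted p = 1.07e-07). The antisense gene CLMAT3 overlaps SPARC exons and was listed at 0.0065 and 0.0058 FPKM in the vehicle and JIB-04 groups.

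SPP1 (ENSG00000118785, chromosome 4, 87975650 to 87983426, plus strand), the phosphorylated, integrin-binding matrix protein osteopontin, rose more than any other of the 6. Vehicle libraries held 0.951, 1.69, 0.380 and 0.211 FPKM, or 7 to 55 estimated reads, and JIB-04 libraries held 24.4, 26.5, 20.6 and 26.9 FPKM, or 606 to 982 reads. The low vehicle level varied with a coefficient of 82.6%, yet all JIB-04 libraries lay far above it. The mean went from 0.808 ± 0.667 to 24.6 ± 2.87 FPKM (SD, n = 4 each), a 30.5-fold ratio. The log2 change of 4.39 (SE 0.32, limma adjusted p = 1.47e-06) was larger in size than that of 99.8% of the genes tested.

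SPP1 is also made by macrophages and osteoclasts, so the markers of those cells were read beside it. Of 10 such markers, 3 averaged 1 FPKM or more, and 2 of these reached that level only through their JIB-04 libraries, so their number in the test is no evidence of direction. They were the lysosomal protein CD68, which rose from 0.573 ± 0.439 to 22.2 ± 1.33 FPKM, and the integrin ITGAM, which rose from 0.295 ± 0.111 to 2.39 ± 0.763 FPKM (SD, n = 4 each). The summed level of the 10 was 14.5 to 18.0 FPKM with vehicle and 39.1 to 42.8 FPKM with JIB-04. CD68 carried most of that rise, and the other marker tested was not called. The pan-leukocyte gene PTPRC was near 0 in both groups (0.0210 and 0.0475 FPKM), and the receptor CSF1R had means of 0.109 and 0.346 FPKM. PTPRC and CSF1R were not picked by adjusted p. The part of these markers in the SPP1 result was not tested. All libraries came from the A673 line, so these genes were read as transcripts of that line, not as counts of such cells. In bulk RNA, a change in the share of cells that express a gene and a change in RNA per cell cannot be told apart.

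**Figure D3:**
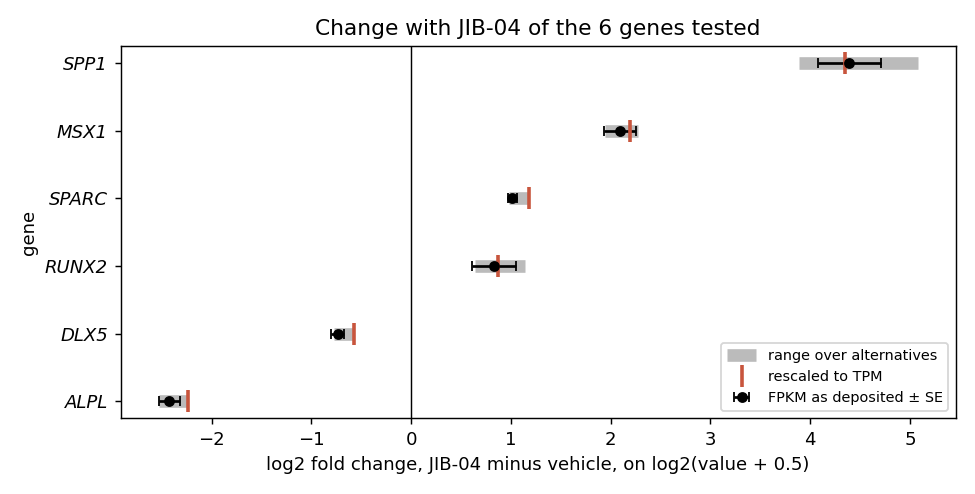
Log2 fold change (JIB-04 minus vehicle, horizontal axis) of the 6 genes tested (vertical axis), with points and error bars for FPKM as deposited ± SE, a vertical tick for TPM and a grey band for the range over the alternative settings. SPP1 lies at 4.39 and ALPL at -2.43, and no band crosses 0.

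The order of the levels changed with treatment. With vehicle it ran from SPARC through DLX5, ALPL and MSX1 to RUNX2, SPP1, BMP4, SP7, MSX2 and BMP2, and each neighbouring pair from RUNX2 down had overlapping libraries. With JIB-04 it ran from SPARC through DLX5, SPP1, MSX1, ALPL and RUNX2 to BMP4, MSX2, SP7 and BMP2. The pairs with overlapping libraries there were BMP4 and MSX2, SP7 and BMP2, and SPP1 and MSX1, the last at 20.6 to 26.9 and 11.9 to 21.2 FPKM. ALPL exceeded SPP1 in all 4 vehicle libraries, and SPP1 exceeded ALPL in all 4 JIB-04 libraries. JIB-04 library 3 was the lowest of its group for 5 of the 6 genes tested and the highest for RUNX2.

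The summed FPKM of a library was 1346289 to 1370436 with vehicle and 1175407 to 1237186 with JIB-04, and transcripts of the mitochondrial genome took 9.99% to 10.6% and 4.59% to 5.54% of it. Steps between low values implied 19565856 to 23800914 mapped reads per vehicle library and 17647536 to 21904379 per JIB-04 library. Rescaling each library to a fixed sum (TPM) moved the median log2 change of all genes tested from -0.07 to 0.08. On that scale 40.4% of genes were called higher and 31.1% lower, while the 6 genes kept their calls, with log2 changes of 4.35 for SPP1, 2.20 for MSX1, 1.18 for SPARC, 0.87 for RUNX2, -0.57 for DLX5 and -2.24 for ALPL.

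Genes around these 10 were read from 11 lists of the BMP and bone pathways, which held 164 genes, 162 of them in the table. Of the 102 that averaged 1 FPKM or more, 50 were higher, 30 lower and 22 not called, with a median log2 change of 0.24, beside -0.07 for all genes tested. The called share was 78.4%, beside 72.2% of all genes tested. Of the 50 higher genes, 7 reached 1 FPKM only through the JIB-04 group, and 2 of the 30 lower genes only through the vehicle group, so their direction was fixed by the filter on level.

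Of 14 BMP and GDF ligands, 10 were under 1 FPKM, 1 rose, 2 fell and BMP7 did not pass. BMP6 rose from 1.12 ± 0.107 to 3.54 ± 0.297 FPKM (SD, n = 4 each; log2 change 1.32, limma adjusted p = 5.92e-06). GDF11, an activin-like ligand, had a log2 change of -2.06, from 37.4 ± 1.99 to 8.56 ± 0.594 FPKM (limma adjusted p = 1.62e-08), and the joint morphogen GDF6 went from 72.6 to 47.5 FPKM. The ligand list had a median of -0.51.

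Receptors and SMADs were nearly all expressed, with 14 of 15 tested, 8 higher, 3 lower and a median of 0.34. ACVR1, a type I receptor, went from 14.1 to 28.3 FPKM, and the type I receptor BMPR1B rose from 0.654 to 1.67 FPKM, having entered the test only through its JIB-04 libraries. The inhibitory SMAD6 fell from 43.1 ± 3.82 to 9.12 ± 1.00 FPKM (SD, n = 4 each; log2 change -2.18, limma adjusted p = 5.89e-08), and the receptor-activated SMAD9 fell from 19.0 to 7.62 FPKM. The signal carriers SMAD1 (28.4 and 22.8 FPKM, adjusted p = 0.0616) and SMAD5 (57.6 and 59.5 FPKM, adjusted p = 0.563), named after their values were seen, did not pass limma, although SMAD5 was called higher on TPM (limma adjusted p = 0.0090).

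Among 18 antagonists and modulators with a row, 10 were tested, 7 rose, 2 fell and the median was 0.61. The pseudoreceptor BAMBI, which blocks signalling, rose from 39.6 ± 1.68 to 105 ± 2.24 FPKM (log2 change 1.40, limma adjusted p = 1.28e-08), and CRIM1, which binds BMPs, from 20.8 to 57.6 FPKM. The BMP co-receptor RGMA fell from 5.77 to 0.846 FPKM, having entered only through its vehicle libraries, and TWSG1, a secreted modulator, from 19.7 to 16.5 FPKM with overlapping groups (limma adjusted p = 0.0479), a call lost on TPM (limma adjusted p = 0.498). Of the 4 ID genes, which BMP signals induce, ID4 rose from 9.60 to 22.3 FPKM and ID3 fell from 493 ± 38.7 to 147 ± 16.6 FPKM (log2 change -1.75, limma adjusted p = 1.27e-07), while ID1 and ID2 did not pass. On TPM, ID2 was called higher (limma adjusted p = 0.0016), and the median of the ID genes went from -0.04 to 0.12.

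Of 23 RUNX and other osteoblast transcription factors, 19 were tested, 7 rose, 3 fell and 9 did not pass, with a median of 0.09. On TPM 9 rose and 3 fell. The AP-1 subunits FOSL1 and FOSL2, both of which act in osteoblasts, rose from 14.0 ± 1.05 to 105 ± 8.23 FPKM and from 2.63 ± 0.391 to 33.4 ± 4.97 FPKM (SD, n = 4 each; log2 changes 2.86 and 3.43, limma adjusted p = 3.92e-09 and 3.37e-08). HAND2 fell from 19.5 to 11.2 FPKM and the Hedgehog effector GLI3 from 16.0 to 7.86 FPKM. CBFB, the partner subunit of RUNX proteins, was at 161 and 145 FPKM and did not pass (limma adjusted p = 0.101). RUNX3 rose from 26.3 to 39.5 FPKM with overlapping libraries (limma adjusted p = 0.00515). RUNX1 was under 1 FPKM on average (0.0361 and 0.739 FPKM), with every JIB-04 library above every vehicle library, as in 13.9% of genes above 0 and under 1 FPKM. The last 3 genes were named after their values were seen.

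Of 13 DLX and MSX-related homeobox genes, 8 were tested, 3 rose and 4 fell, and the median was -0.67. DLX2 rose from 17.7 to 34.4 FPKM while its neighbour DLX1 fell from 14.4 to 6.78 FPKM. BARX2 rose from 35.2 to 40.6 FPKM, and ALX4, a factor of skull and limb patterning, fell from 103 to 47.6 FPKM. DLX6, the neighbour of DLX5 and named after its values were seen, fell with it, from 3.43 to 1.37 FPKM (log2 change -1.08, limma adjusted p = 0.000249).

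Of 27 bone matrix genes, 16 were tested, and 10 were called higher and 6 lower (10 and 5 on TPM), with a median of 0.80, where 72.2% of all genes tested were called. Of the 10 higher genes, COL11A1, MGP, SMOC2, SPOCK1 and THBS1 entered only through the JIB-04 group, and of the 6 lower genes BGLAP only through the vehicle group. All but COL11A1 were named after their values were seen. The filter on level fixed the direction of these genes, and the median of the list includes them. The glycoprotein tenascin C (TNC) rose from 64.9 ± 5.10 to 354 ± 7.79 FPKM (log2 change 2.44, limma adjusted p = 2.46e-09), and the fibrillar collagen gene COL11A1 from 0.169 ± 0.102 to 12.1 ± 1.14 FPKM (log2 change 4.24, limma adjusted p = 1.67e-08; SD, n = 4 each). The chains of collagen I went opposite ways. COL1A2 fell from 79.3 ± 1.69 to 7.82 ± 1.20 FPKM (log2 change -3.27, limma adjusted p = 7.93e-09), and COL1A1, named after its values were seen, rose from 13.8 ± 1.50 to 47.1 ± 4.43 FPKM (log2 change 1.73, limma adjusted p = 2.91e-07). The collagen chaperone SERPINH1 fell from 279 to 130 FPKM. Osteocalcin (BGLAP), the late osteoblast marker and also named after its values were seen, went from 1.43 to 0.798 FPKM with overlapping libraries (limma adjusted p = 0.0382), and did not pass on TPM (limma adjusted p = 0.0806). The 4 other members of the osteopontin (SIBLING) family stayed under 1 FPKM, with MEPE and DSPP listed at 0 in all libraries.

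**Figure D4:**
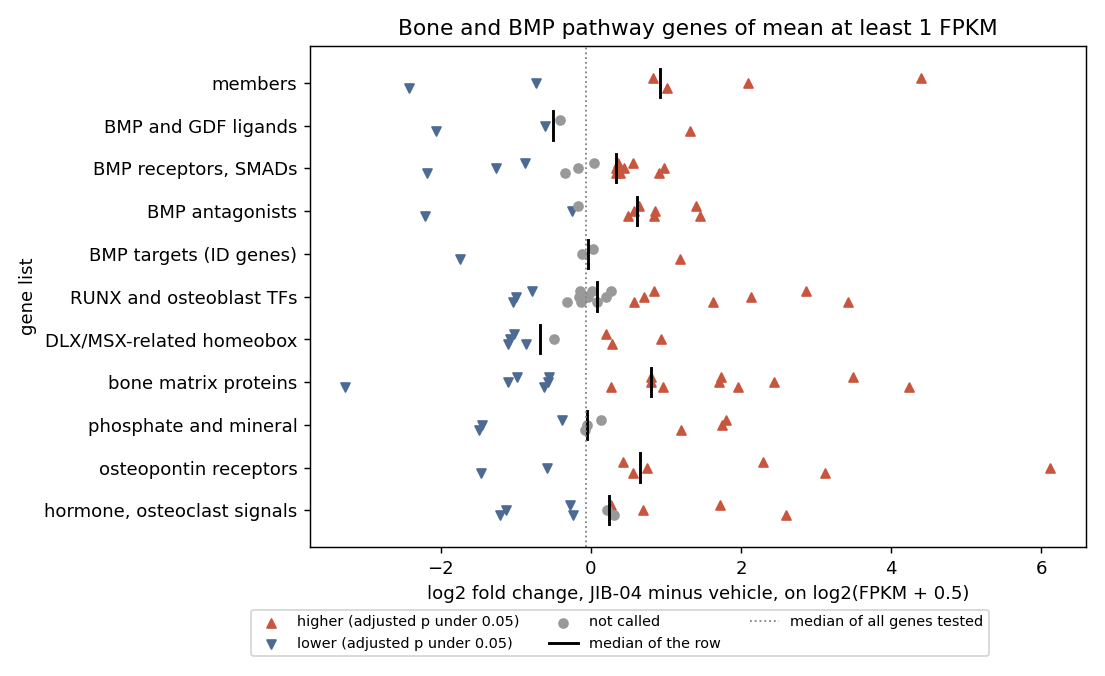
Log2 fold change (JIB-04 minus vehicle, horizontal axis) of each gene averaging 1 FPKM or more, for the 10 genes themselves (top row) and 10 pathway lists (the SIBLING list had none), with triangles for genes called higher or lower, grey circles for genes not called and bars for list medians. Higher and lower genes occur in every row, and the dotted line marks the median of all genes tested, -0.07.

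Among genes that handle phosphate and mineral, 9 of 14 with a row were tested, 3 rose and 3 fell, with a median of -0.06 that became 0.10 on TPM. ANKH, which exports pyrophosphate, an inhibitor of mineral, rose from 15.6 ± 2.40 to 55.2 ± 4.64 FPKM (log2 change 1.80, limma adjusted p = 4.89e-07), and the ectonucleotidase NT5E from 4.20 to 15.2 FPKM. PHOSPHO1, a phosphatase of matrix vesicles, fell from 149 ± 12.2 to 53.2 ± 6.82 FPKM (log2 change -1.48, limma adjusted p = 6.48e-07), as did FAM20C, the kinase that phosphorylates osteopontin, from 34.7 to 12.4 FPKM. ALPP and ALPPL2, other alkaline phosphatase genes, were listed at 0 in every library.

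Of 14 osteopontin receptors and proteases, 8 were tested, 6 higher and 2 lower, with a median of 0.65. The protease MMP3 rose from 1.28 ± 0.636 to 118 ± 11.5 FPKM (log2 change 6.12, limma adjusted p = 3.22e-08) and the urokinase PLAU from 1.53 to 17.2 FPKM. The integrin subunits ITGA4 and ITGB5 fell from 5.03 to 1.53 FPKM and from 87.9 to 58.2 FPKM. The receptor CD44, named after its values were seen, rose from 2.23 to 13.0 FPKM.

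Of 16 hormone and osteoclast signals, 10 were tested, 4 rose and 4 fell, with a median of 0.24. On TPM 6 rose and 2 fell. The vitamin D receptor VDR rose from 0.585 ± 0.151 to 6.04 ± 0.294 FPKM (log2 change 2.60, limma adjusted p = 1.53e-07) and had entered only through its JIB-04 libraries, and PTHLH, which encodes parathyroid hormone-related protein, rose from 2.01 to 7.81 FPKM. The Wnt co-receptor LRP5 fell from 63.3 to 28.8 FPKM and CSF1, the macrophage growth factor, from 3.38 to 1.19 FPKM. TNFSF11 (RANKL), the signal that drives osteoclast formation, was listed at 0 in all 8 libraries.

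Most markers of other mesenchymal cell types averaged under 1 FPKM. The 2 of 7 osteocyte markers tested both fell, PDPN from 23.2 to 3.11 FPKM and CAPG from 164 to 143 FPKM, and CAPG did not pass on TPM (limma adjusted p = 0.551). Of 11 chondrocyte markers with a row, 6 were tested, 2 rose and 3 fell (2 of these 3 entered only through the vehicle group), and their summed level was 38.0 to 42.1 FPKM with vehicle and 39.0 to 42.8 FPKM with JIB-04. Of 8 adipocyte markers 2 were tested and 1 rose (both on TPM), and of 8 skeletal muscle markers 2 were tested and 1 rose, entering only through the JIB-04 group, with the muscle factors MYOG and MYF5 listed at 0 in all libraries.

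The genes most like each tested member over the 8 libraries were found by Pearson's r of log2(FPKM + 0.5) among 11458 genes, a measure dominated by the split between the 2 groups. They were KNTC1 and SEPT7P2 for RUNX2 (both r = 0.977), BRD3 and ARL2 for DLX5 (both 0.999), MID1 (0.999) and SLC6A8 (0.998) for MSX1, MVB12B and PTPN9 for ALPL (both 0.999), PTPN1 and DYRK3 for SPARC (both 0.999), and HNRNPCP1 and ENO2 for SPP1 (both 0.997). RUNX2 had the lowest best r of the 6.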

How the data were processed

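PolyA RNA of A673 cells (4 vehicle and 4 JIB-04 libraries) was sequenced by the authors. The labels give reads of 151 bases and the study's methods 50 cycles. The submitters' processing notes name GSNAP, SAMtools, Cufflinks and GRCh38, and no source used here states whether counting used strand. The deposited values were FPKM per gene, made by the authors. The table held 66095 entries for 65975 identifiers; 117 identifiers with several entries were summed and 13 genes with placeholders were left out, which left 65962. Of 33 names turned into dates, 28 were restored from identifiers. A value listed at exactly 0 may be a failed estimate.

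Samples were grouped by the treatment label. Genes averaging 1 FPKM or more were tested with limma 3.58.1 (eBayes with trend, R 4.3.3) on log2(FPKM + 0.5), adjusted by Benjamini-Hochberg at 0.05. The fit was also run on simulated data in which few genes changed, unlike in these data. Genes under 1 FPKM got an exact permutation test over 70 splits. Depth was inferred from steps of low values in genes with 1 transcript of 2000 to 6000 bases (GENCODE 29): 82.2% to 87.0% of these values lay within 15% of 1 or 2 reads. Reads were estimated on the longest transcript, a value of 0 was given a limit of 3 reads, and both cover counting error only. Python 3.11.15 with pandas 2.3.3 and numpy 2.4.6 was used.

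The 10 genes and the lists were chosen with earlier results of these data known. Named list genes were the 2 called with the smallest adjusted p in each direction, apart from those marked as named later, not called or under 1 FPKM. Likeness was taken among genes averaging 5 FPKM or more. Alternatives covered the pseudocount, filter, scaling, test, replicate block and left-out libraries. The 2 checks of the number of genes under 1 FPKM (on TPM, and with a library left out) were chosen after seeing the data. Columns left unmapped numbered 0.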

Additional observations from a re-analysis of the deposited data

Results flagged for a closer look

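Within each group of 4 libraries, the 10 genes and 51 named list genes (122 groups) were searched for a library far from the other 3, by a gap to its nearest neighbour above Dixon's critical value for 4 samples. Chance flags about 1 in 20 groups, and 6 were found, 2 of them in the 10 genes. SP7 was at 0.0348 FPKM in vehicle library 3, against 0.0580 to 0.0610 in the others, and at 0 in JIB-04 library 2, against 0.0590 to 0.0682 in the others. BMPR1B was at 1.82 FPKM in JIB-04 library 1, against 1.61 to 1.64. TWSG1 was at 18.7 FPKM in JIB-04 library 3, against 15.6 to 16.0. PHOSPHO1 was at 167 FPKM in vehicle library 1, against 142 to 145. The chondrocyte factor SOX5 was at 3.17 FPKM in JIB-04 library 4, against 4.68 to 4.97.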

How the results depend on the processing

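Each of the 6 genes tested kept its direction and its call under every alternative that tested it (18 each, and 17 for RUNX2, which was not tested at a mean of at least 5 FPKM). At the 1 FPKM filter RUNX2 and SPP1 entered only through JIB-04, so their kept direction is no support there. The fit with no filter also called them higher (limma adjusted p = 0.0165 and 1.71e-05). At the 5 FPKM filter the direction was likewise fixed for MSX1 and SPP1, through JIB-04, and for ALPL, through vehicle. The highest limma adjusted p of RUNX2 was 0.0222, without vehicle replicate 3. Of the 10 genes, 4 were called higher in all settings except 5 with no filter, where MSX2 was added, and 3 at a mean of at least 5 FPKM, and 2 were called lower in all. Leaving out each library in turn gave log2 changes of 0.69 to 0.96 for RUNX2, -0.77 to -0.69 for DLX5, 1.94 to 2.21 for MSX1, -2.53 to -2.35 for ALPL, 0.98 to 1.04 for SPARC and 4.15 to 4.69 for SPP1. Without the pseudocount, the log2 ratio of group means was 1.14 for RUNX2 and 4.93 for SPP1. Called pathway genes numbered 80, with 63 at a mean of at least 5 FPKM, 98 with no filter and 79 to 83 without single libraries; those of all genes numbered 12604, with 9962 to 15516 under the filters. Libraries with the same replicate number did not deviate together (correlations of 0.08, -0.06, 0.03 and -0.00), so the numbers were not taken as pairs. With the replicate block, 12518 genes, 79 pathway genes and the same 4 higher and 2 lower genes were called, and no call of the 6 changed. The number of genes under 1 FPKM was 4 on TPM and without any library. Depth limited MSX2, BMP2, BMP4 and SP7, at most 19 reads per library.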
